A study of Mus musculus with 15 samples.

Results

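Hypoxia and glycolysis genes were followed across 5 lines of 4T1 cells, a metastatic mouse mammary carcinoma cell line. The set is a list of 34 symbols from these pathways, chosen by name, and each gene was read on its brightest probe set. Of the 34, 31 were measured among 19937 genes. Gpi1 and Eno1 were on no probe set that carries a symbol here, and Gapdh was on 11 probe sets that each list several genes, so these 3 have no value. The lines were parental cells, which served as control, Tw1KD cells depleted of endogenous Twist1, and Tw1KD cells to which Twist1 was returned in its wild-type form or with the substitution S42A or S42D. These last 3 are called the wild-type, S42A and S42D lines. Serine 42 of Twist1 is known as a site of Akt phosphorylation, which alanine cannot accept and which aspartate mimics by its charge. Each line was read on 3 arrays (15 in all). The protocol, given once for all samples, was growth to 70% confluency in DMEM with puromycin at 4 µg/ml and G418 at 800 µg/ml, and 100 ng of total RNA was labelled. Each construct was carried by 1 line, the method of depletion is not given in the sources used here, and the S42D samples carry both substitutions in their genotype field, so that they were assigned by title. No oxygen level is given, and no line is labelled as hypoxic.

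When oxygen is plentiful, prolyl hydroxylases mark the alpha subunits of the hypoxia-inducible factor (HIF) for destruction, and when it is scarce the subunits persist and raise genes for glucose uptake, glycolysis, lactate production and acid handling. Many carcinoma cells run glycolysis at a high rate even in oxygen. Hif1a is controlled mostly at the level of its protein, which an array does not read.

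Twist1 itself read 9.01, 9.03 and 9.07 on the parental arrays, 7.47, 7.23 and 7.35 on the Tw1KD arrays, 8.35, 8.49 and 8.16 on the wild-type arrays, 8.60, 8.71 and 8.80 on the S42A arrays and 9.07, 8.96 and 8.97 on the S42D arrays, all in log2 intensity. It fell by 1.69 ± 0.080 log2 on depletion and was higher in each re-expressing line, at 8.33, 8.70 and 9.0. A difference between constructs and a difference in the amount of Twist1 cannot be told apart here. Values are log2 intensities as deposited, and ± gives the SD of a level or the SE of a difference, with n = 3 arrays per line. A gene is called higher or lower at an adjusted p under 0.05 in limma's moderated test over all 19937 genes. The labels do not say whether the replicates were separate cultures, so p-values measure only the spread between these samples, which may be technical. Across genes, arrays of a line correlated at 0.997 to 0.999 and arrays of different lines at 0.975 to 0.987. The carcinoma markers Krt8 and Krt18 were bright in every line (line means 12.89 to 13.18 and 12.31 to 12.71), while Krt19, Epcam and Cdh1 were lower in the 3 re-expressing lines than in Tw1KD cells, so that the 5 epithelial markers summed to 43.36 in the S42A line and 57.92 in Tw1KD cells. Of the other markers, 3 of 4 leukocyte genes and 3 of 5 endothelial genes were among the dimmest 25% of line means (below 5.50) in every line, with sums of 21.72 to 22.28 and 26.16 to 30.89. Cdh5, an endothelial cadherin, reached 10.67 in the S42D line against 5.66 in parental cells, while Pecam1, Kdr, Tek and Emcn stayed at or below 5.6. The 5 fibroblast genes summed to 36.98 to 39.89, with none among the dimmest 25% throughout. Among them Pdgfra moved most, at 11.29 in parental cells, 9.60 without Twist1 and 9.83, 10.85 and 11.38 with wild type, S42A and S42D. The part of these markers in the results was not tested.

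The largest movements in the set were in 4 genes. Aldoc, Car9 and Car12 were bright in parental cells, fell on Twist1 depletion and fell again in the wild-type line, and Car12 rose above the parental level in the S42D line. Pfkfb4 rose on depletion and was low in all 3 re-expressing lines. Most enzymes of glycolysis proper moved by fractions of a log2 unit. Other than Aldoc, 10 step enzymes from phosphofructokinase to lactate dehydrogenase were measured among the members. Of these, 9 had their highest line mean in the S42A line, as did 18.4% of all genes. For Pfkm the wild-type, S42A and S42D means were nearly equal (10.81, 10.82 and 10.81). Isoforms outside the set did not all follow. Eno3 was highest in the S42D line (12.21, against 11.92 with S42A) and Ldhb in the wild-type line (9.05, against 6.99 with S42A). The grouping of step enzymes was made after the values were seen and is a description. Over the 5 lines, 28 of 31 members differed by limma's moderated F test, against 61.3% of all genes. The 3 that did not pass were Slc2a3, Epas1 and Slc16a3, with adjusted p of 0.0591, 0.259 and 0.346. The range of line means was at least 1 log2 unit in 9 of 31 members (29.0%) and in 12.6% of all genes, while the median range was 0.40 for members and 0.36 for all genes. In each of the 10 comparisons below, the share of members called exceeded the share of all genes called. None of the members was among the dimmest 25% in any line, and the shares of all genes were not matched for brightness.

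**Figure D1:**
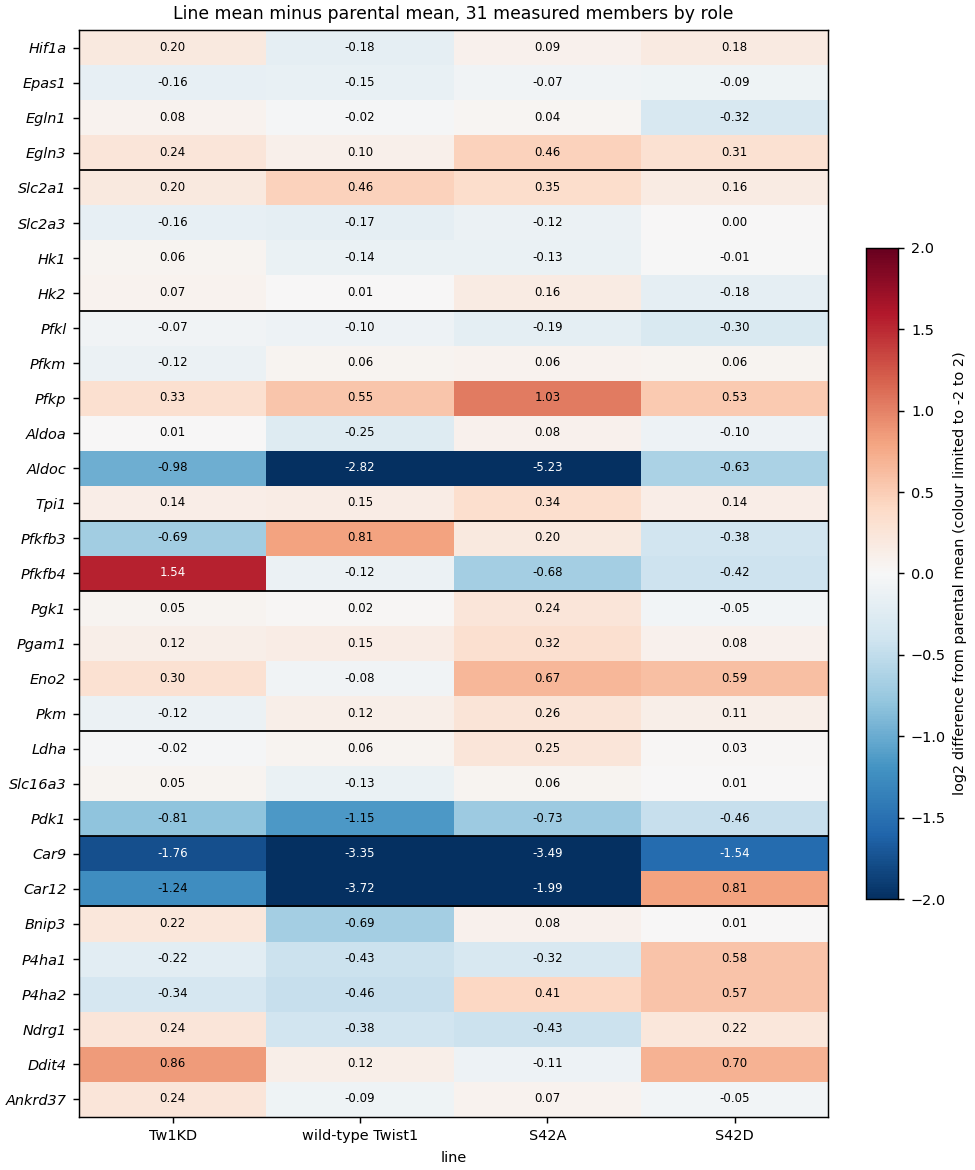
Heat map of the line mean minus the parental mean (log2) for the 31 measured members, in rows ordered by role, with the 4 derived lines in columns and the colour scale limited at 2 log2 units either way. The deepest blue cells are those of Aldoc, Car9 and Car12, of which Car12 turns red in the S42D column, and most step enzymes of glycolysis are reddest in the S42A column.

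Twist1 depletion moved 21 of the 31 members (67.7%), 12 up and 9 down, where 36.3% of all genes were called (19.9% higher and 16.4% lower). Car9 and Car12 fell and Pfkfb4 rose by at least 2-fold with no overlap of the arrays, which makes 3 members, and 2.65% of all genes did the same. The median member difference was 0.055 log2 and the median over all genes 0.0051. Of all calls, 54.8% were higher as deposited and 65.2% after each array was centred on its median, where 13 members were higher and 7 lower. Quantile normalization gave 12 members higher and 10 lower. 

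Return of wild-type Twist1 to Tw1KD cells moved 20 members (64.5%), 5 up and 15 down, beside 48% of all genes (23.5% higher and 24.5% lower). Aldoc, Pfkfb4, Car9 and Car12 fell and Pfkfb3 rose by at least 2-fold without overlap, 5 members beside 4.84% of all genes. The median member difference was -0.14 and that of all genes -0.061. After median centring, 6 members were higher and 13 lower. Return of S42A moved 24 members (77.4%), 12 each way, beside 42.5% of all genes (22.8% higher and 19.7% lower). Aldoc, Pfkfb4 and Car9 fell at least 2-fold without overlap (3 members, 4.84% of all genes). The medians were 0.072 for members and -0.013 for all genes. The even split was lost after median centring, with 13 members higher and 7 lower, while quantile normalization gave 13 higher and 11 lower. Return of S42D moved 20 members (64.5%), 11 up and 9 down, beside 43.4% of all genes (21.7% higher and 21.7% lower). Car12 rose and Pfkfb4 fell at least 2-fold without overlap (2 members, 4.55% of all genes), and the medians were -0.0047 and -0.045. Centring on the array median changed the higher share of all calls there from 50.0% to 39.5%, with 10 members higher and 9 lower. Hk1, whose probe sets disagree, is among the members counted as lower with wild-type and S42A return. The 3 comparisons share the Tw1KD arrays.

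Between constructs, the S42A line differed from the wild-type line in 21 members (67.7%), 16 higher and 5 lower, beside 40% of all genes (20% and 20%). Car12 was higher and Aldoc lower by at least 2-fold without overlap (2 members, 3.16% of all genes). The median was 0.15 for members and 0.041 for all genes. The S42D line differed from the wild-type line in 20 members (64.5%), 14 higher and 6 lower, beside 43.3% of all genes (20.7% higher and 22.6% lower). Aldoc, Car9, Car12, P4ha1 and P4ha2 were higher and Pfkfb3 lower by at least 2-fold without overlap, 6 members beside 4.82% of all genes. The medians were 0.13 and 0.01. With array medians centred, 33.2% rather than 47.9% of all calls were higher, and 12 members were higher and 11 lower. After quantile normalization, 13 members were higher and 7 lower. The S42D line differed from the S42A line in 21 members (67.7%), 8 higher and 13 lower, beside 36.1% of all genes (17.1% higher and 19.1% lower). Aldoc, Car9 and Car12 were higher by at least 2-fold without overlap (3 members, 3.16% of all genes). The medians were -0.075 and -0.034. Here centring moved the median of all genes to -0.11 and the higher share of all calls from 47.2% to 30.0%, and 8 members were then higher and 15 lower. 

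Against parental cells, the wild-type line differed in 20 members (64.5%), 8 higher and 12 lower, beside 49% of all genes (25% higher and 24% lower). Centring changed the higher share of all calls from 51.0% to 68.4%, with 11 members higher and 9 lower. Quantile normalization leaned the other way, with 5 members higher and 15 lower. The S42A line differed from parental cells in 18 members (58.1%), 10 higher and 8 lower, beside 40.3% of all genes (22.6% higher and 17.7% lower). Centring changed the higher share of all calls from 56.1% to 71.7%, with 17 members higher and 7 lower, while quantile normalization gave 12 higher and 10 lower. The S42D line differed from parental cells in 21 members (67.7%), 12 higher and 9 lower, beside 37% of all genes (19.8% higher and 17.2% lower). Hk1 is counted as lower in the wild-type line here, on its brighter probe set. The 3 comparisons share the parental arrays. By highest line mean, 12 members peaked in the S42A line, 8 in Tw1KD cells, 5 in parental cells, 4 in the S42D line and 2 in the wild-type line. The same lines held the highest mean of 18.4%, 26.4%, 21.7%, 14.4% and 19.1% of all genes, so that the members in Tw1KD cells and the S42D line were near the share of all genes. By lowest line mean, 12 members were lowest in the wild-type line, where 33.1% of all genes also had their lowest mean.

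Promoter windows are shown for 6 members picked after their values were seen, to show which of them carry the core of a hypoxia response element, the letters ACGTG to which HIF is known to bind. They are the 4 members with the widest range of line means (Aldoc, Car12, Car9 and Pfkfb4), P4ha1, which was highest in the S42D line, and Ldha, which was highest in the S42A line. Windows are the 250 bases before the annotated start in RefSeq's mouse table (GRCm38.p6), and capitals mark ACGTG or its complement CACGT, searched on both strands, so that CACGTG is found on each strand. Car9 (chr4:43506776-43507025, plus strand) has 1 match, with its first base 18 bases before the start, and P4ha1 (chr10:59323046-59323295, plus strand) has 1 at 16 bases. The upstream of 2 windows of Ldha (chr7:46845554-46845803, plus strand) has 5, where each overlapping pair is a palindrome found on both strands. The other Ldha window (chr7:46846832-46847081), not printed here, has none. Car12 (chr9:66713436-66713685, plus strand), the upstream of 2 windows of Aldoc (chr11:78322823-78323072, plus strand) and Pfkfb4 (chr9:108991652-108991901, plus strand) have no match in these bases. The windows are given 5′ to 3′ in the direction of the gene.
Car9: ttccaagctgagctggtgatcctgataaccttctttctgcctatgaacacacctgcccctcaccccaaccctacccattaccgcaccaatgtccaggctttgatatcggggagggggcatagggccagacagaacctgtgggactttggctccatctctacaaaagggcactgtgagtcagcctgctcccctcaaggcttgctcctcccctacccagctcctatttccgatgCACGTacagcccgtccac
P4ha1: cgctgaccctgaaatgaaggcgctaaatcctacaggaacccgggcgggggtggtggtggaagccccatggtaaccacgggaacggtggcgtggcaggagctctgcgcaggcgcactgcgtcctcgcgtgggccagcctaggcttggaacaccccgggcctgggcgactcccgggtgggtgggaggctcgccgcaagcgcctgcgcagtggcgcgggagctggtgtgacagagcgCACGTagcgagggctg
Ldha: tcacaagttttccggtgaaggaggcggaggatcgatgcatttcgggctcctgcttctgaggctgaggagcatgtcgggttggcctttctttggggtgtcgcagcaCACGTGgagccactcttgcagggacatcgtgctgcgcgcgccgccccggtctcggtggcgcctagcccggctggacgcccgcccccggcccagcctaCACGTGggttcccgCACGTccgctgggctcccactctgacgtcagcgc
Car12: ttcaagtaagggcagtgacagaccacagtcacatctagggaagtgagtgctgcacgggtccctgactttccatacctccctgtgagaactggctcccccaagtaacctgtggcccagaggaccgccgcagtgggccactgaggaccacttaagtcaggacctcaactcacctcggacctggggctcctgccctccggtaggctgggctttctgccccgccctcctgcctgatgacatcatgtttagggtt
Aldoc: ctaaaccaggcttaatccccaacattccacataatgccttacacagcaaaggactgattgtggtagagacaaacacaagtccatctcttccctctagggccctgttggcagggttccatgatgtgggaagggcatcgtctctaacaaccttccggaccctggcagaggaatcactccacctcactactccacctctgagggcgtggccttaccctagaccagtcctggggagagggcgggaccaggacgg
Pfkfb4: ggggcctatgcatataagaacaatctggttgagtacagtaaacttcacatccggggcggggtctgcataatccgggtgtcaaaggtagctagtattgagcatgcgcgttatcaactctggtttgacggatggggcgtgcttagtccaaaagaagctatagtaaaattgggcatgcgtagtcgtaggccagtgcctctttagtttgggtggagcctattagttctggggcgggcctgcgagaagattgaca
Of the 28 members with a window, 19 (67.9%) held ACGTG in at least 1 of theirs, against 4998 of 27025 genes (18.5%). Epas1, Slc2a3 and Ndrg1 had no window. By windows the counts were 22 of 39 (56.4%) and 5444 of 32851 (16.6%). The Twist1-type E-box CATCTG was in 5 of 28 members (17.9%) and 16.3% of genes, and CATATG in 0 of 28 and 3.98%. A match is a description of letters, and its absence says only that these letters are not in this window.

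Among the HIF subunits and their hydroxylases, movements were small. Hif1a, the oxygen-regulated alpha subunit, read 11.85, 11.76 and 11.88 on the parental arrays, 12.05, 11.99 and 12.06 on the Tw1KD arrays, 11.66, 11.62 and 11.67 on the wild-type arrays, 11.92, 11.91 and 11.94 on the S42A arrays and 12.02, 12.01 and 12.02 on the S42D arrays. The wild-type line was lowest and the Tw1KD and S42D lines highest, with no overlap between the wild-type line and any other. Hif1a rose on depletion by 0.20 ± 0.039 log2 (adjusted p = 0.00074) and fell by 0.38 ± 0.039 with wild-type return (adjusted p = 1.14e-06). It was higher in the S42D line than in the wild-type line by 0.36 ± 0.039. The S42A line exceeded the wild-type line by 0.27 ± 0.039. The fall in the S42A line against Tw1KD cells (-0.11 ± 0.039) was not called when any S42A replicate was left out (-0.11 to -0.12) or without Tw1KD replicate 1 or 3 (each -0.10). Epas1, which encodes the other well-known alpha subunit, read 6.22, 6.20 and 6.05 on the parental arrays, 6.02, 6.12 and 5.85 on the Tw1KD arrays, 6.06, 5.94 and 6.04 on the wild-type arrays, 6.17, 6.03 and 6.08 on the S42A arrays and 6.0, 6.06 and 6.15 on the S42D arrays. These values lay below the median of all probe sets on an array (6.57 to 6.72), so differences may be understated. The Epas1 arrays overlapped between all lines and no comparison passed, the widest difference being -0.16 ± 0.071 on depletion (adjusted p = 0.0912, 95% interval -0.32 to -0.01). That difference was called without parental replicate 3 (-0.22) or Tw1KD replicate 2 (-0.23), and the one between the wild-type and parental lines (-0.15) without parental replicate 3 (-0.20).

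Egln1, the main HIF prolyl hydroxylase in most cells, lay between 10.46 and 10.56 in 4 lines and at 10.16 ± 0.077 in the S42D line. It fell by 0.40 ± 0.045 with S42D return (adjusted p = 3.46e-06), and the S42D line was also below the wild-type (difference -0.30), S42A (-0.36) and parental (-0.32) lines. Egln3, a hydroxylase that is itself a HIF target, moved differently, from 12.19 ± 0.020 in parental cells and 12.43 ± 0.025 in Tw1KD cells to 12.65 ± 0.023 in the S42A line. It was higher in the S42A line than in parental cells by 0.46 ± 0.034 and than in the wild-type line by 0.36 ± 0.034 (adjusted p = 7.57e-07). Its highest line mean was in the brightest 1% of line means (above 12.45), as were those of Slc2a1, Hk1, Aldoa, Tpi1, Pgk1, Pkm, Ldha and Ndrg1, where array differences may be compressed.

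Of the genes for glucose uptake and its first phosphorylation, Slc2a1 alone moved in most comparisons. Slc2a1, the glucose transporter GLUT1, read 12.26, 12.23 and 12.21 on the parental arrays, 12.43, 12.42 and 12.43 on the Tw1KD arrays, 12.70, 12.68 and 12.69 on the wild-type arrays, 12.55, 12.60 and 12.59 on the S42A arrays and 12.39, 12.37 and 12.43 on the S42D arrays. All derived lines lay above parental cells and the wild-type line was highest, with no overlap between it and another line. Slc2a1 rose by 0.20 ± 0.034 log2 on depletion (adjusted p = 0.000285) and by a further 0.26 ± 0.034 with wild-type return (adjusted p = 1.1e-05). S42A return raised it by 0.15 ± 0.034, and with S42D the difference from Tw1KD cells was -0.03 ± 0.034 (adjusted p = 0.453, 95% interval -0.11 to 0.04). The S42D line was below the wild-type line (difference -0.30 ± 0.034). The S42A minus wild-type difference was -0.11 ± 0.034, which was not called without S42A replicate 1 (-0.10) or after quantile normalization.

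Slc2a3, the transporter GLUT3, spanned line means of only 6.15 to 6.33, below the median of an array, so differences may be understated. Hk2, the inducible hexokinase, was lowest in the S42D line at 9.27 ± 0.040. It fell by 0.25 ± 0.060 with S42D return (adjusted p = 0.00353), and the S42D minus S42A difference was -0.34 ± 0.060 (adjusted p = 0.000374). Hk1, the constitutive hexokinase, is the member whose probe sets disagreed. On the brighter one it read 12.98 ± 0.055 without Twist1 return (Tw1KD) and 12.78 ± 0.091 with wild-type return, a difference of -0.20 ± 0.054, while the second probe set read 10.82 and 11.19. With the mean of both, the difference was 0.09 and was not called, so no direction is drawn for Hk1, although the counts of members include it as read on the brighter probe set.

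In upper glycolysis, Pfkp and Aldoc moved most and in opposite directions in the S42A line. The 3 phosphofructokinase genes, whose product catalyses the committed step, did not move together. Pfkp, the platelet-type form, rose from 10.65 ± 0.065 in parental cells to 10.98 ± 0.039 in Tw1KD cells and reached 11.69 ± 0.030 in the S42A line, with 11.20 ± 0.022 and 11.18 ± 0.015 in the wild-type and S42D lines. The S42A line exceeded parental cells by 1.03 ± 0.041 (2.05-fold, adjusted p = 8.08e-11) and Tw1KD cells by 0.71 ± 0.041. The S42D minus S42A difference was -0.51 ± 0.041 (adjusted p = 1.71e-07). Pfkl, the liver-type form, went the other way and was lowest in the S42D line, -0.23 ± 0.040 from Tw1KD cells and -0.30 ± 0.040 from parental cells. Pfkm, the muscle-type form, was higher in each re-expressing line than in Tw1KD cells, by 0.17, 0.18 and 0.18.

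Aldoc, the aldolase known mainly from brain, showed the widest range of any member. It read 11.81, 11.84 and 11.84 on the parental arrays, 10.90, 10.77 and 10.88 on the Tw1KD arrays, 8.94, 9.07 and 9.02 on the wild-type arrays, 6.67, 6.77 and 6.37 on the S42A arrays and 11.23, 11.20 and 11.18 on the S42D arrays. No line overlapped another, and the order ran from parental cells through the S42D, Tw1KD and wild-type lines to the S42A line. Aldoc fell by 0.98 ± 0.079 log2 on depletion (1.97-fold, adjusted p = 1.95e-07), by 1.84 ± 0.079 more with wild-type return (3.58-fold) and by 4.25 ± 0.079 with S42A return (19.0-fold, adjusted p = 2.86e-14). With S42D it rose by 0.35 ± 0.079 (adjusted p = 0.00219) and stood 24.2-fold above the S42A line (difference 4.60 ± 0.079, adjusted p = 1.4e-14). The S42A arrays of Aldoc lay near the median of all probe sets on an array (6.57 to 6.72), so the fold there may be understated. Aldoa, the common aldolase, kept line means of 12.89 to 13.22. It was lowest in the wild-type line and fell by 0.26 ± 0.034 with wild-type return (adjusted p = 1.84e-05). Tpi1, the triose isomerase, peaked in the S42A line, above Tw1KD cells by 0.20 ± 0.035, and the S42D minus S42A difference was -0.20 ± 0.035.

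**Figure D2:**
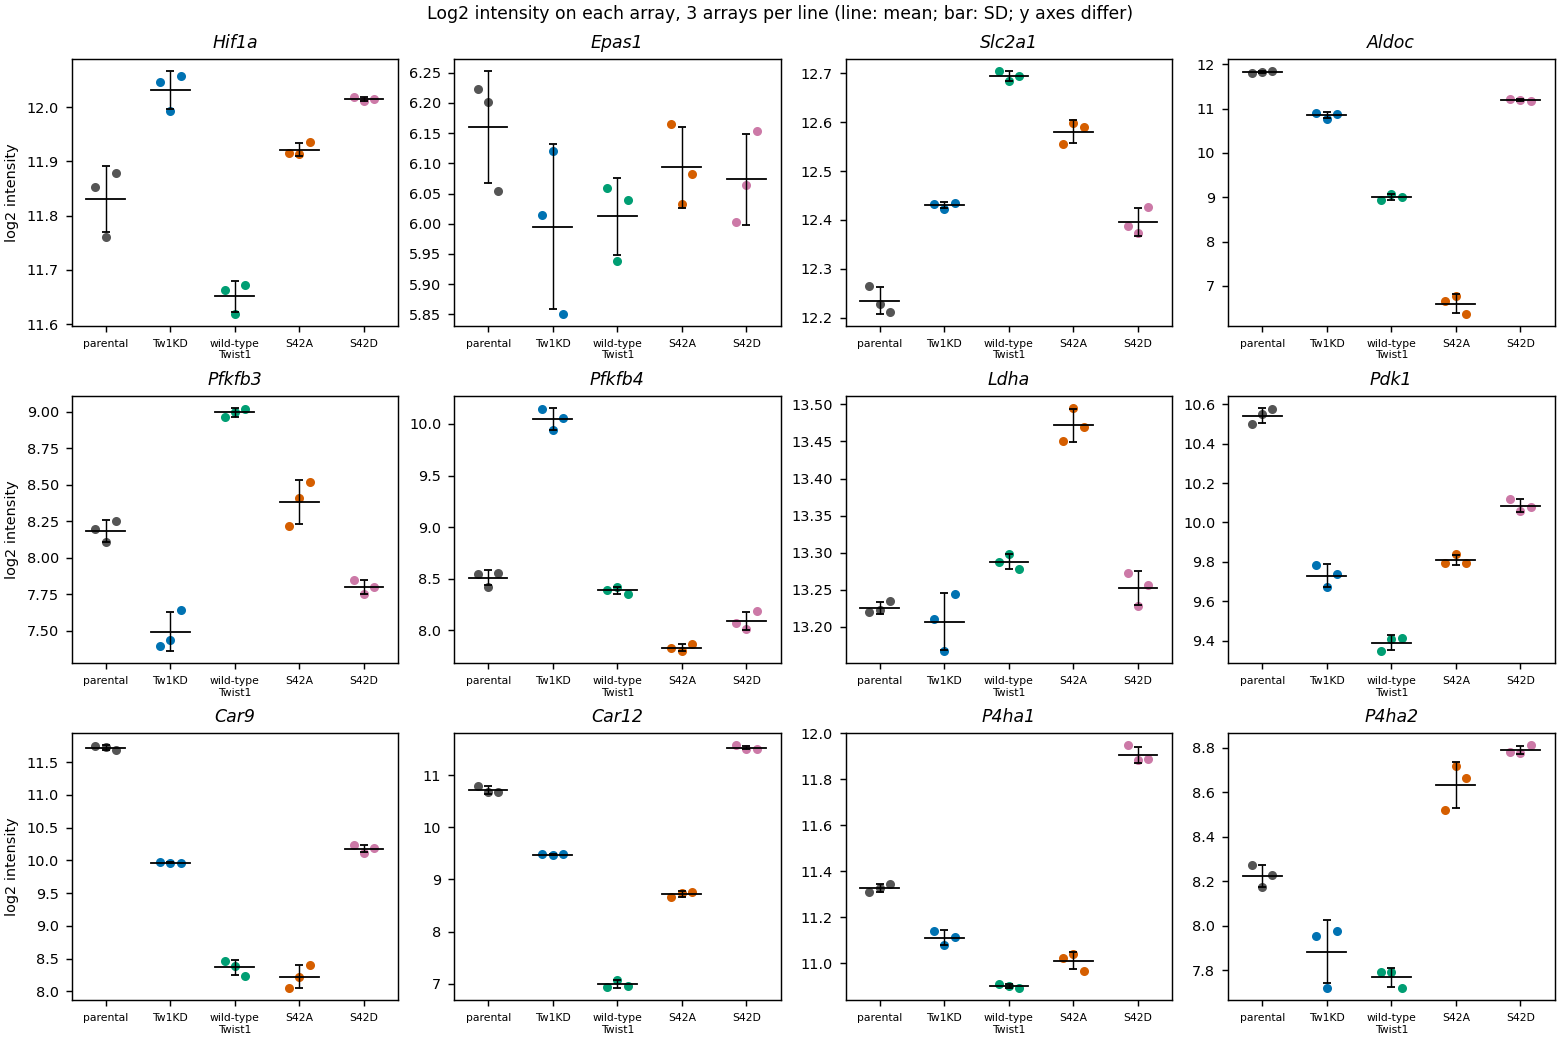
Log2 intensity on each array for the 12 members given by array, with 1 panel per gene, the 5 lines on the horizontal axis, points for the 3 arrays and a bar at the line mean. Aldoc, Car9 and Car12 span several log2 units between lines while the 3 arrays of a line lie close together, and Epas1 shows overlapping arrays throughout.

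Pfkfb3 and Pfkfb4 encode bifunctional enzymes that make and degrade the sugar bisphosphate that activates phosphofructokinase, and they moved in opposite directions on depletion and on every return to Tw1KD cells. Pfkfb3 read 8.19, 8.10 and 8.25 on the parental arrays, 7.40, 7.44 and 7.65 on the Tw1KD arrays, 8.96, 9.0 and 9.02 on the wild-type arrays, 8.22, 8.41 and 8.52 on the S42A arrays and 7.85, 7.75 and 7.80 on the S42D arrays. The wild-type line was highest and Tw1KD cells lowest, each without overlap with any other line. Pfkfb3 fell by 0.69 ± 0.076 on depletion (adjusted p = 4.23e-06) and rose by 1.5 ± 0.076 with wild-type return (2.83-fold, adjusted p = 7.47e-10). S42A raised it by 0.89 ± 0.076 and S42D by 0.31 ± 0.076 (adjusted p = 0.00418), and the S42D minus wild-type difference was -1.19. Pfkfb4 read 8.55, 8.42 and 8.56 on the parental arrays, 10.15, 9.94 and 10.05 on the Tw1KD arrays, 8.40, 8.42 and 8.35 on the wild-type arrays, 7.83, 7.80 and 7.86 on the S42A arrays and 8.07, 8.01 and 8.19 on the S42D arrays. Tw1KD cells stood above every other line with no overlap. Pfkfb4 rose by 1.54 ± 0.059 on depletion (2.90-fold, adjusted p = 8.19e-11) and fell by 1.66 ± 0.059, 2.22 ± 0.059 and 1.96 ± 0.059 with wild type, S42A and S42D. Against parental cells the wild-type line differed by -0.12 ± 0.059 (adjusted p = 0.111, 95% interval -0.25 to 0.01), and the S42A and S42D lines were lower (differences -0.68 and -0.42). For both genes the change with wild-type return was opposite in direction to the change on depletion.

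The 4 measured members of lower glycolysis rose together in the S42A line. They were Pgk1 (the first ATP-making step), Pgam1 (phosphoglycerate mutase), Eno2 (an enolase best known from neurons) and Pkm (pyruvate kinase). All 4 were higher in the S42A line than in parental cells, Tw1KD cells or the wild-type line. The S42A minus Tw1KD differences were 0.19, 0.20, 0.37 and 0.37 log2, and the S42A minus wild-type differences 0.22, 0.17, 0.75 and 0.14. Of all genes, 22.6%, 22.8% and 20% were called higher in the same 3 comparisons, against parental, Tw1KD and wild-type cells. Eno3, a further enolase outside the set, was called lower in the S42A line (11.92) than in parental cells (12.03). Against the wild-type line it was called higher, and against Tw1KD cells (11.83) it was not called. Among the 4 members the sizes differed. Eno2 changed most, from 8.90 ± 0.069 in the wild-type line to 9.64 ± 0.10 in the S42A line (adjusted p = 6.49e-08) and 9.57 ± 0.068 in the S42D line (adjusted p = 1.23e-07 against wild type). It had fallen by 0.38 ± 0.055 with wild-type return. In the S42D line Pgk1, Pgam1 and Pkm were below the S42A line (differences -0.29, -0.24 and -0.15), while Eno2 differed by -0.08 ± 0.055 (adjusted p = 0.348, 95% interval -0.19 to 0.04). On depletion Pgam1 and Eno2 rose (0.12 and 0.30), Pkm fell (-0.12) and Pgk1 did not pass (0.05 ± 0.040, adjusted p = 0.351). The Pgam1 call was lost without parental replicate 1 (0.10), and that of Pkm without parental replicate 1 (-0.10) or Tw1KD replicate 3 (-0.09).

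**Figure D3:**
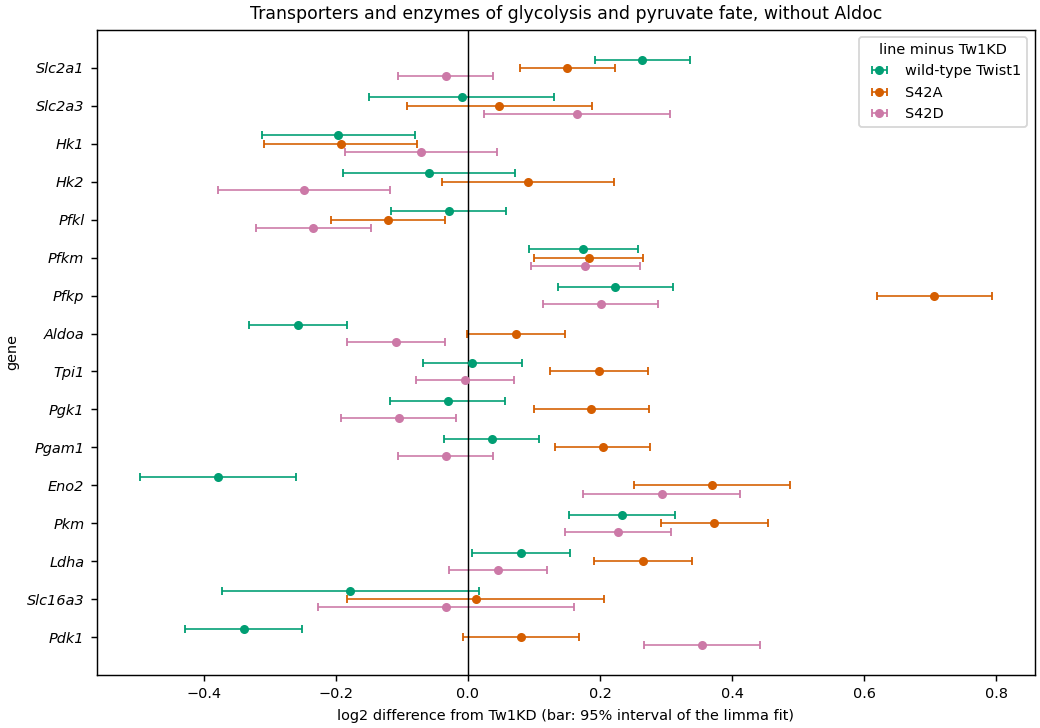
Difference from Tw1KD cells (log2, with 95% intervals from limma) for the measured glycolytic members other than Aldoc in the wild-type, S42A and S42D lines. The S42A points lie to the right of the other lines for Pfkp, Tpi1, Pgk1, Pgam1, Pkm and Ldha, with Pfkp at 0.71 the farthest.

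Of the genes that decide the fate of pyruvate and lactate, Pdk1 moved most. Ldha, the lactate dehydrogenase subunit that favours lactate, read 13.22, 13.22 and 13.23 on the parental arrays, 13.21, 13.17 and 13.24 on the Tw1KD arrays, 13.29, 13.30 and 13.28 on the wild-type arrays, 13.45, 13.49 and 13.47 on the S42A arrays and 13.27, 13.23 and 13.26 on the S42D arrays. The S42A arrays stood above all others, and the other lines lay close together. Ldha was higher in the S42A line than in Tw1KD cells by 0.26 ± 0.034 (adjusted p = 1.42e-05) and than in the wild-type line by 0.18 ± 0.034, and the S42D line fell by 0.22 ± 0.034 relative to S42A (adjusted p = 0.000122). Depletion left it at -0.02 ± 0.034 (adjusted p = 0.752, 95% interval -0.09 to 0.06). Slc16a3, the lactate exporter MCT4, spanned line means of 6.75 to 6.94 with overlapping arrays in every comparison, and none was called. Without wild-type replicate 3, the wild-type line was called lower than Tw1KD cells (-0.25 in place of -0.18) and the S42A line higher than the wild-type line (0.27 in place of 0.19). Pdk1, a kinase that shuts off pyruvate dehydrogenase, read 10.50, 10.55 and 10.57 on the parental arrays, 9.78, 9.67 and 9.74 on the Tw1KD arrays, 9.35, 9.41 and 9.42 on the wild-type arrays, 9.80, 9.84 and 9.80 on the S42A arrays and 10.12, 10.06 and 10.08 on the S42D arrays. Parental cells were highest and the wild-type line lowest, each without overlap with any other line. Pdk1 fell by 0.81 ± 0.041 on depletion (1.75-fold, adjusted p = 1.46e-09) and by 0.34 ± 0.041 with wild-type return (adjusted p = 6.35e-06). With S42A it differed by 0.08 ± 0.041 (adjusted p = 0.144), and with S42D it rose by 0.35 ± 0.041, which left it -0.46 from parental cells.

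The 2 carbonic anhydrases, membrane enzymes that help cells dispose of acid and are widely used as hypoxia markers, fell on depletion and were highest in parental cells or the S42D line. Car9 read 11.75, 11.73 and 11.68 on the parental arrays, 9.98, 9.96 and 9.96 on the Tw1KD arrays, 8.47, 8.40 and 8.24 on the wild-type arrays, 8.05, 8.22 and 8.41 on the S42A arrays and 10.23, 10.12 and 10.20 on the S42D arrays. Parental cells were far above all others, the wild-type and S42A lines lay lowest and overlapped each other, and the Tw1KD and S42D lines lay between. Car9 fell by 1.76 ± 0.076 log2 on depletion (3.38-fold, adjusted p = 2.9e-10), by 1.59 ± 0.076 with wild-type return (3.02-fold, adjusted p = 4.43e-10) and by 1.74 ± 0.076 with S42A return (3.34-fold). The S42D line exceeded the wild-type line by 1.81 ± 0.076 (3.51-fold, adjusted p = 1.28e-10) and the S42A line by 1.95 ± 0.076 (3.87-fold). Against Tw1KD cells it stood 0.22 ± 0.076 higher (adjusted p = 0.0343). That call was lost without Tw1KD replicate 1, 2 or 3 (0.22, 0.21 and 0.21), without S42D replicate 1 (0.19) or 3 (0.21) and after centring on the array median (0.17).

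Car12 read 10.80, 10.67 and 10.67 on the parental arrays, 9.48, 9.46 and 9.48 on the Tw1KD arrays, 6.94, 7.08 and 6.96 on the wild-type arrays, 8.66, 8.75 and 8.77 on the S42A arrays and 11.57, 11.51 and 11.51 on the S42D arrays. Every line was apart from every other, with the wild-type line lowest and the S42D line highest. It fell by 1.24 ± 0.049 on depletion (2.36-fold, adjusted p = 1.19e-10) and by 2.48 ± 0.049 with wild-type return (5.59-fold, adjusted p = 9.35e-14). With S42A return it fell by 0.75 ± 0.049, and the S42A line exceeded the wild-type line by 1.73 ± 0.049 (3.32-fold, adjusted p = 3.79e-12). With S42D it rose by 2.05 ± 0.049 over Tw1KD cells (4.15-fold), to 0.81 above parental cells, 6.98-fold above the S42A line and 23.2-fold above the wild-type line (adjusted p = 5.37e-16). In this line Car9 stayed -1.54 from its parental level while Car12 passed its own. The wild-type arrays of Car12 lay near the median of an array, so that fold may be understated.

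Among the other hypoxia genes, the collagen prolyl hydroxylases rose in the S42D line. P4ha1, which like P4ha2 encodes a catalytic subunit that hydroxylates collagen chains, read 11.31, 11.33 and 11.34 on the parental arrays, 11.14, 11.08 and 11.11 on the Tw1KD arrays, 10.91, 10.90 and 10.89 on the wild-type arrays, 11.02, 11.04 and 10.97 on the S42A arrays and 11.95, 11.88 and 11.89 on the S42D arrays. The S42D arrays stood above every other array and the wild-type arrays were lowest. P4ha1 was higher in the S42D line than in Tw1KD cells by 0.79 ± 0.036 (1.73-fold, adjusted p = 2.69e-10), than in the wild-type line by 1.0 ± 0.036 (2.01-fold) and than in the S42A line by 0.90 ± 0.036. On depletion it fell by 0.22 ± 0.036 and with wild-type return by 0.21 ± 0.036. P4ha2 read 8.27, 8.17 and 8.23 on the parental arrays, 7.96, 7.72 and 7.98 on the Tw1KD arrays, 7.79, 7.79 and 7.72 on the wild-type arrays, 8.52, 8.72 and 8.66 on the S42A arrays and 8.78, 8.78 and 8.81 on the S42D arrays. Both mutant lines lay above the other 3 lines with no overlap. P4ha2 rose by 0.75 ± 0.067 with S42A (adjusted p = 3.09e-07) and by 0.91 ± 0.067 with S42D (adjusted p = 4.33e-08), while wild-type return gave -0.12 ± 0.067 (adjusted p = 0.176, 95% interval -0.26 to 0.03), which was called without Tw1KD replicate 2 (-0.20). The S42D line exceeded the wild-type line by 1.02 ± 0.067 (2.03-fold), and the mutants differed by 0.16 ± 0.067 (adjusted p = 0.0894, 95% interval 0.01 to 0.30).

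Bnip3, Ndrg1 and Ddit4 rose on depletion and fell with wild-type return. Bnip3, a mitochondrial protein that promotes mitophagy, was highest in Tw1KD cells (11.35 ± 0.073) and lowest with wild-type return (10.44 ± 0.045), a difference of -0.91 (adjusted p = 4.97e-10), and the S42A and S42D lines were above the wild-type line by 0.77 ± 0.044 and 0.69 ± 0.044. Ndrg1, a stress-responsive gene used as a hypoxia marker, was 12.68 ± 0.0084 and 12.66 ± 0.012 in the Tw1KD and S42D lines and 12.06 ± 0.021 and 12.01 ± 0.032 in the wild-type and S42A lines. It fell by 0.62 ± 0.033 with wild type and by 0.67 ± 0.033 with S42A, and differed by -0.02 ± 0.033 with S42D (adjusted p = 0.677). Ddit4, an inhibitor of mTOR signalling, was also highest in Tw1KD cells, with a rise of 0.86 ± 0.047 on depletion (1.81-fold, adjusted p = 3.47e-09) and differences of -0.74 with wild type and -0.97 with S42A. The S42D line was above the S42A line by 0.65 ± 0.033 for Ndrg1 and 0.81 ± 0.047 for Ddit4 (adjusted p = 5.85e-09). Ankrd37, a HIF target of ankyrin-repeat type, rose by 0.24 ± 0.057 on depletion and was lower with wild type (-0.33) and S42D (-0.29).

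The contrast between the mutants ran in opposite directions within the set. Members lower in the S42D line than in the S42A line were Egln1, Egln3, Slc2a1, Hk2, Pfkl, Pfkp, Aldoa, Tpi1, Pfkfb3, Pgk1, Pgam1, Pkm and Ldha, which encode HIF hydroxylases, a glucose transporter, a hexokinase and glycolytic enzymes or their regulator, with differences of -0.11 to -0.58. The Pfkl call was lost without S42A replicate 2 (-0.11) or 3 (-0.08) and without S42D replicate 1 (-0.10) or 2 (-0.11). Members higher in the S42D line were Aldoc, Pfkfb4, Pdk1, Car9, Car12, P4ha1, Ndrg1 and Ddit4, with differences of 0.26 to 4.60. Centring on the array median moved all genes down in this contrast, as given above, and turned the direction of no call among these 21.

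**Figure D4:**
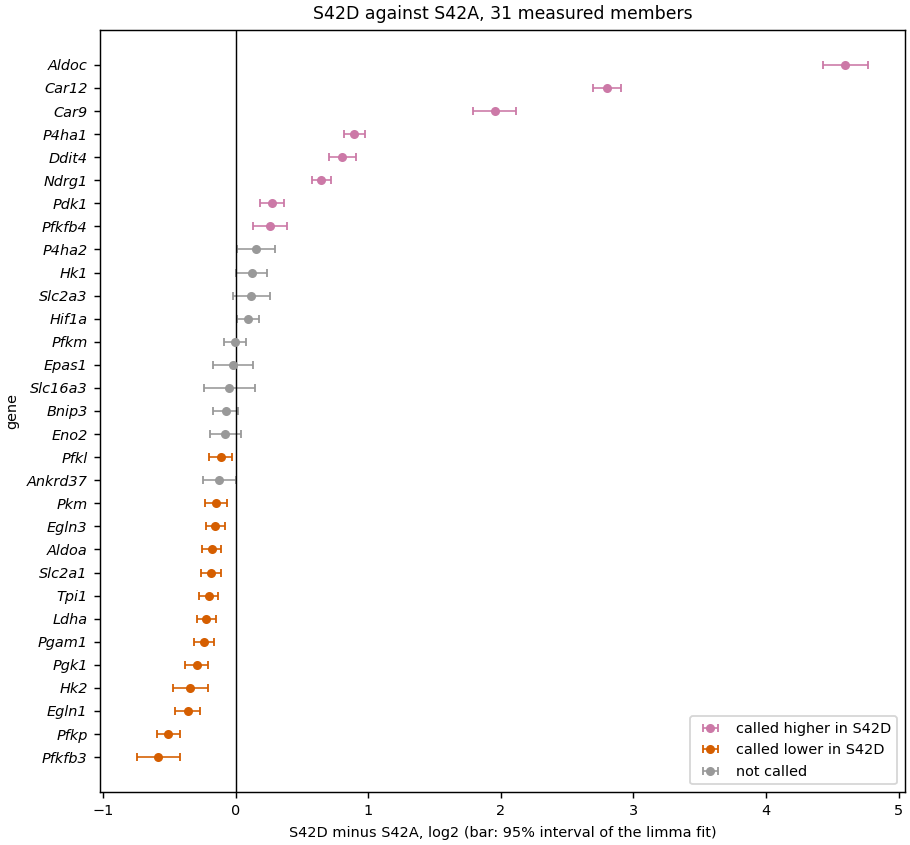
Difference of the S42D line from the S42A line (log2, with 95% intervals from limma) for the 31 measured members, ordered by that difference. Aldoc (4.60), Car12 (2.80) and Car9 (1.95) lie far to the right of 0, and the step enzymes of glycolysis other than Aldoc lie at or to the left of it.

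Some further small calls were lost when an array was left out, and their log2 differences are given here with and without those arrays. Leaving out an array also weakens the test, so a loss does not by itself mean that the call rested on that array. On depletion this touched the muscle-type phosphofructokinase. Pfkm (-0.12) lost its call without parental replicate 1 or 2 (-0.11 and -0.12) and without Tw1KD replicate 1 or 2 (-0.12 and -0.10). With S42A return it touched 4 falls. Pfkl (-0.12) lost its call without Tw1KD replicate 1 or 3 (-0.12 and -0.11) and without S42A replicate 1 (-0.08). Bnip3 (-0.14) lost its call without Tw1KD replicate 1 or 3 (-0.11 and -0.13) and without S42A replicate 2 or 3 (-0.13 and -0.13). P4ha1 (-0.10) lost its call without Tw1KD replicate 1 or 3 (-0.09 and -0.10) and without S42A replicate 1 or 3 (-0.11 and -0.08). Ankrd37 (-0.17) lost its call without Tw1KD replicate 2 (-0.13) and without S42A replicate 2 or 3 (-0.14 and -0.17). With S42D return it touched 3 falls. Aldoa (-0.11) lost its call without Tw1KD replicate 1 (-0.10) and without S42D replicate 1 (-0.09). Pgk1 (-0.10) lost its call without Tw1KD replicate 1, 2 or 3 (-0.09, -0.11 and -0.11) and without S42D replicate 1 or 2 (-0.09 and -0.11). Ddit4 (-0.16) lost its call without S42D replicate 3 (-0.14). Between the S42A and wild-type lines it touched a collagen hydroxylase and a HIF target that were higher with S42A. P4ha1 (0.11) lost its call without wild-type replicate 1, 2 or 3 (0.11, 0.11 and 0.10) and without S42A replicate 1 or 2 (0.10 and 0.09). Ankrd37 (0.16) lost its call without wild-type replicate 2 or 3 (0.17 and 0.13) and without S42A replicate 1 or 3 (0.14 and 0.16). Between the S42D and wild-type lines it touched a glucose transporter and a hexokinase. Slc2a3 (0.17) lost its call without wild-type replicate 1, 2 or 3 (0.17, 0.18 and 0.18) and without S42D replicate 2 or 3 (0.18 and 0.12). Hk2 (-0.19) lost its call without wild-type replicate 2 (-0.16) and without S42D replicate 3 (-0.17). None of these differences exceeded 0.19 in size, and every one kept its direction.

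The other genes of these pathways were read from 5 lists. On the list for the entry of pyruvate into the mitochondrion (14 measured), 9 genes were higher and 1 lower in the S42A line than in Tw1KD cells, where 22.8% of all genes were called higher and 19.7% lower. The list mixes enzymes with their inhibitors. The 9 higher genes included the pyruvate dehydrogenase kinases Pdk2 and Pdk3, and the 1 lower gene was Pdha1, a subunit of pyruvate dehydrogenase itself. The counts therefore give no direction for pyruvate entry. In the S42D line 1 was higher and 9 were lower than in the S42A line (17.1% and 19.1% of all genes). The list medians were 0.25 and -0.17 log2, against -0.013 and -0.034 over all genes. On depletion 6 were higher and 1 lower (19.9% and 16.4% of all genes). With wild-type return the counts were 5 and 3 (23.5% and 24.5%), and with S42D return 4 and 3 (21.7% each). Against the wild-type line, 8 were higher and 2 lower in the S42A line (20% each of all genes). In the S42D line they were 3 and 6 (20.7% and 22.6%). Against parental cells, 11, 12 and 9 of the 14 were higher in the wild-type, S42A and S42D lines, beside 25%, 22.6% and 19.8% of all genes. Idh3a, a subunit of mitochondrial isocitrate dehydrogenase, rose by 0.76 ± 0.067, 1.34 ± 0.067 and 0.54 ± 0.067 with wild type, S42A and S42D (adjusted p = 6.42e-10 for S42A). Pcx, pyruvate carboxylase, rose by 0.93 ± 0.080 and 1.06 ± 0.080 with wild type and S42A and read 0.19 ± 0.080 with S42D (adjusted p = 0.0771), which was called without Tw1KD replicate 1 (0.24). Pdk2, a second kinase of pyruvate dehydrogenase, fell by 0.77 ± 0.053 on depletion and by 0.82 ± 0.053 with wild type, and rose by 0.97 ± 0.053 with S42A and 0.53 ± 0.053 with S42D.

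The pentose phosphate list (7 measured) had 1 gene higher and 5 lower with wild-type return and 1 higher and 4 lower with S42A, beside 24.5% and 19.7% of all genes called lower. It was split on depletion (3 higher, 2 lower) and with S42D return (2 and 3), beside 19.9% and 21.7% of all genes called higher. Against wild type, 4 were higher and 2 lower with S42A (20% each of all genes), and 4 and 3 with S42D (20.7% and 22.6%). Against S42A, the S42D line had 1 higher and 4 lower (17.1% and 19.1%). Rpia, which interconverts pentose phosphates, rose by 1.74 ± 0.062 on depletion (adjusted p = 3.82e-11) and fell by 1.59 ± 0.062, 1.85 ± 0.062 and 1.83 ± 0.062 with wild type, S42A and S42D, the same directions as Pfkfb4. Pgls, the lactonase of the pathway, fell by 1.22 ± 0.065, 0.50 ± 0.065 and 0.79 ± 0.065. H6pd, the pathway's first enzyme in the endoplasmic reticulum, fell by 0.68 ± 0.040 with wild type and rose by 0.55 ± 0.040 with S42D. Among the 19 measured other glycolytic isoforms, 2 rose and 2 fell on depletion, where 19.9% and 16.4% of all genes did, and 7 rose and 1 fell with S42A, where 22.8% and 19.7% did. With wild type 4 rose and 1 fell (23.5% and 24.5% of all genes), and with S42D 6 and 5 (21.7% each). Ldhb, the lactate dehydrogenase subunit that favours pyruvate, rose by 0.75 ± 0.071 with wild type and fell by 1.31 ± 0.071 with S42A and 1.56 ± 0.071 with S42D (adjusted p = 2.77e-10). It was read on the brighter of its 2 probe sets, and on that one it and Ldha moved in opposite directions in the S42A line. Pfkfb2, a further bifunctional enzyme, rose by 1.44 ± 0.070 with wild type, 0.44 ± 0.070 with S42A and 0.80 ± 0.070 with S42D, and Slc2a6, a glucose transporter, by 1.15 ± 0.063, 1.22 ± 0.063 and 0.86 ± 0.063.

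Other HIF targets (28 measured) were split, with 10 higher and 4 lower on depletion, 12 and 10 with wild type, 6 and 8 with S42A and 6 and 9 with S42D. The shares of all genes called higher and lower were 19.9% and 16.4% on depletion, 23.5% and 24.5% with wild type, 22.8% and 19.7% with S42A and 21.7% each with S42D, so that 6 higher of 28 lies near the share of all genes. Between constructs, 7 were higher and 9 lower in the S42A line than in the wild-type line (20% each of all genes). In the S42D line 12 were higher and 6 lower than in the wild-type line (20.7% and 22.6%). Against the S42A line 11 were higher and 5 lower with S42D (17.1% and 19.1%). Adm, a vasodilator peptide, rose by 0.60 ± 0.12 on depletion and fell by 1.65 ± 0.12 with S42A and 1.72 ± 0.12 with S42D (adjusted p = 2.13e-08). It read 5.65 ± 0.11 and 5.58 ± 0.30 in the S42A and S42D lines, near the dimmest 25% of line means, so these falls may be understated. Its rise of 0.37 ± 0.12 with wild type was lost without Tw1KD replicate 2 (0.32) or wild-type replicate 1 (0.33). Hmox1, heme oxygenase, rose by 0.57 ± 0.047 with wild type and fell by 0.35 ± 0.047 and 1.70 ± 0.047 with S42A and S42D. Tfrc, the transferrin receptor, rose by 1.55 ± 0.046 with wild type and 0.94 ± 0.046 with S42A and fell by 0.32 ± 0.046 with S42D. Adm, Hmox1 and Tfrc were named for size and all fell with S42D return. The 6 called higher with that return were Vegfa, Fam162a, Plod1, Plod2, Gbe1 and Cxcr4. Of these, Gbe1 read 8.97 in Tw1KD cells and 10.78 in the S42D line, and Plod1 10.93 and 12.46. Of the 10 HIF regulators, 4 rose and 1 fell on depletion, beside the same 19.9% and 16.4% of all genes. With return, 2 rose and 3 fell with wild type, 2 and 3 with S42A and 3 and 3 with S42D, beside the shares given above. Hif1an, the asparaginyl hydroxylase that blunts HIF activity, rose by 0.73 ± 0.084 on depletion (adjusted p = 6.29e-06) and fell by 0.52 ± 0.084 with S42A and 0.85 ± 0.084 with S42D. Arnt2, a dimer partner of HIF alpha subunits, read -0.01 ± 0.071 with wild type (adjusted p = 0.916) and rose by 0.95 ± 0.071 with S42D (adjusted p = 5.16e-08). Crebbp, a coactivator, fell by 0.47 ± 0.051 with wild type and was higher in the S42D line than in the wild-type line by 0.81 ± 0.051. Its rise of 0.17 ± 0.051 with S42A was lost without Tw1KD replicate 1 (0.14) and after quantile normalization.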

How the data were processed

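The values deposited by the authors were log2 intensities per probe set and array, a unit judged from their range. The submitters' processing notes name R 2.10.0 and affy. Background correction, normalization and summary over probes are not given in the sources used here, and any scaling between arrays makes each difference relative to the other transcripts of an array. Of 34760 probe sets, 21640 carried 1 gene symbol, 1321 several and 11799 none. Symbols were updated by gene number (21553 matched) against RefSeq's mouse gene table (GRCm38.p6). Each gene took its brightest probe set, which gave 19937 genes, 954 of them with more than 1 probe set, and dim genes were kept.

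The model, in limma 3.58.1 (R 4.3.3), gave each line a mean over all 15 arrays, and tests were 2-sided with Benjamini-Hochberg adjustment over all genes. The fit was tested on simulated data. Array precision is limited by 3 arrays per line, with a median SD within a line of 0.066 log2. Named by array were Hif1a, Epas1, Slc2a1, Ldha, Pdk1, Car9 and members called at 2-fold or more without overlap in a main comparison. From each other pathway list, the called genes with the largest differences, at most 3, were named. The members, lists, motifs and alternatives were chosen with earlier results of these data known. Groups came from the sample titles.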

Additional observations from a re-analysis of the deposited data

Results flagged for a closer look

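Some members were called in opposite directions against Tw1KD cells in 2 re-expressing lines, which alone makes the difference between those 2 lines larger than either difference from Tw1KD cells. Because these comparisons share the Tw1KD arrays and the members were picked for opposite calls, the call on the difference between the lines (limma, n = 3 arrays per line) adds no support, and the values are given as a description. The carbonic anhydrases stood out by size. Car12 was higher in the S42D line than in the wild-type line by 4.54 log2 and than in the S42A line by 2.80. Car9 was higher there by 1.81 and 1.95, although its own rise over Tw1KD cells was small and lost its call under several alternatives. Aldoc, an aldolase, was higher with S42D by 2.19 against wild type and by 4.60 against S42A. P4ha1, a collagen prolyl hydroxylase subunit, was higher with S42D by 1.0 and 0.90. Pdk1, the pyruvate dehydrogenase kinase, was higher with S42D than with wild type by 0.69.

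Smaller differences were seen in 3 further genes. Eno2, an enolase, fell with wild type and rose with both mutants. It was above the wild-type line by 0.75 in the S42A line and by 0.67 in the S42D line. Egln3, a HIF prolyl hydroxylase, fell with wild type and rose with S42A, and was above the wild-type line by 0.36 in the S42A line. Pgk1, phosphoglycerate kinase, was higher with S42A and lower with S42D, the S42D minus S42A difference being -0.29. The fall of Pgk1 with S42D against Tw1KD cells was itself lost under several alternatives. Twist1 itself read 9.0 ± 0.058 (SD) with S42D, 8.70 ± 0.099 with S42A and 8.33 ± 0.16 with wild type, and its part in these differences was not tested.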

How the results depend on the processing

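Counts of called members stayed within 1.5 times the values above in all 10 comparisons and in the F test, under median centring, quantile normalization, a filter on dim genes, the mean of probe sets, array weights, a trended and robust fit, fits of 2 lines only (which could not be applied to the F test) and leaving out each array in turn. Of 310 member differences, 206 were called, 172 of them in the same direction under every alternative, 33 not under at least 1, and 1 (Hk1 with S42A return) under every alternative but once in the opposite direction, and 54 others were called only under some alternative. The reversals were all in Hk1 with the mean of its 2 probe sets, which gave 0.087, 0.11 and 0.11 log2 for the wild-type, S42A and S42D lines against Tw1KD cells and 0.12, 0.14 and 0.14 against parental cells. These followed its second probe set, which rose in those lines. The replicate block gave 21, 20, 23, 18, 21, 19 and 20 called members in the 7 main comparisons, in the order of the report, and 17, 19 and 20 against parental cells. The numbers did not pair the samples in a consistent way over the lines, since 7 of 30 same-numbered pairs correlated above 0.1 (range -0.39 to 0.42) and 5 of 15 samples correlated best with their own number. Between Tw1KD and parental cells, replicates 2 and 3 correlated at 0.39 and 0.42 and replicate 1 at 0.015, so some pairing of those 2 lines cannot be told from these values. The filter on dim genes kept 15391 genes and all 31 members. Probe brightness limits what can be seen for the 9 members in the brightest 1%.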
